A study of Mus musculus with 8 samples.

Results

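The genes described here are 10 components of fibroblast growth factor (FGF) receptor signalling: the receptor Fgfr2, the transcription factors Etv4 and Etv5, and the feedback inhibitors Spry1, Spry2, Spry4, Dusp4, Dusp6, Spred1 and Spred2. They were chosen by name. Each was read from a probe set whose platform annotation gives that symbol alone, and where a gene had more than 1 such probe set (Etv5 and Spred2) the brightest on average was taken. All 10 were measured, among 19938 genes in the table. Expression was measured on 8 single-colour arrays of total RNA from cells selected with Epcam magnetic beads out of dissociated mouse lungs at E18.5, late in gestation. The 4 knockout arrays carry the label Mst1/2 CKO: Mst1 and Mst2, the mammalian Hippo kinases encoded by Stk4 and Stk3, had been deleted with ShhCre, so the deletion covers cells in which Cre under control of Shh had been active, among them the lung epithelial progenitors. The 4 control arrays are labelled only as Control, with no word on whether those animals carried ShhCre or floxed alleles. Strain, and whether an array holds 1 lung or a pool, are not stated either. The comparison asks which transcripts of this pathway differ in the epithelium when the Hippo kinases are missing.

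As background, FGF ligands made largely by the lung mesenchyme bind Fgfr2 on the neighbouring epithelium, and the receptor signals through adaptor proteins to Ras and the kinases Raf, Mek and Erk. Erk signalling raises transcription of Etv4 and Etv5, which carry the response to target genes, and of Sprouty, Spred and Dusp genes, whose products damp the same pathway. In mouse lung this signalling drives branching of the distal epithelium, and Etv5 is known for maintaining alveolar type 2 cells, the cells that make surfactant.

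Values are log2 expression as deposited, and each difference is knockout minus control on that scale with its standard error (SE), from limma's moderated test over all genes with n = 4 arrays in each group. Adjusted p-values (Benjamini-Hochberg) take in all 19938 genes, and a gene with one under 0.05 is called changed. Array medians lay between 7.21 and 7.30, and the median difference over all genes was −0.02. Stk4 was at 9.45, 9.44, 9.31 and 9.24 in knockout arrays, against 9.59, 9.84, 9.59 and 9.62 in control arrays (difference −0.30, SE 0.076, limma adjusted p = 0.0188), a call that was lost without knockout replicate 3 (−0.28, limma adjusted p = 0.0592) and with the mesenchymal marker mean in the fit (−0.19, limma adjusted p = 0.311). Whether its probe set lies in the deleted part is not known, so it does not check the labels, and Stk3 was not analysed here. Epcam, on which the cells were selected, was at 9.84 to 10.24 in knockout arrays and 9.94 to 10.24 in control arrays. Type 2 cell markers were mostly lower in the knockout arrays (17 of 19 measured called lower, 0 higher). Those not called were Sftpc, at 13.32 in knockout and 13.38 in control arrays (−0.055, limma adjusted p = 0.553), and Ctsh (−0.22, limma adjusted p = 0.202). Type 1 cell markers were higher (12 of 16 called higher, 0 lower), and 5 of 20 mesenchymal and 5 of 12 endothelial markers were called higher with 0 lower. Without 1 array the mesenchymal count was 2 (without knockout replicate 3 or 4, or control replicate 1, 2 or 3) or 10 (without knockout replicate 1). All 19 measured mitosis genes were called higher, as were 1 of 11 leukocyte and 2 of 6 mesothelial markers with 0 lower. Over all genes 8.60% were called higher and 10.2% lower, so the leukocyte share (9.09%) was near that over all genes. Of 6 erythroid markers 0 were called higher and 1 lower (Tfrc, −1.02, limma adjusted p = 0.000599, named after its value was seen), and epithelial markers were called in both directions (3 higher and 2 lower of 16). Leaving out 1 array put the leukocyte count between 0 and 3, and without control replicate 4 the epithelial markers called higher were 5. In such bulk samples fewer cells of a type and less RNA per cell cannot be told apart.

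Promoter windows of 7 of the 10 genes were searched, with 8 windows in all since Etv5 has more than 1 annotated start. Windows of Etv4, Spry4 and Dusp4 were not part of the search, so nothing is known here of motifs in them. The windows of Fgfr2, Etv5, Spry1 and Spred2 are shown, since these genes were called lower together. Each holds the 250 bases before the transcription start in RefSeq's annotation of GRCm38.p6, read 5′ to 3′ on the strand of the gene. They are chr7:130266809-130267058 (minus strand) for Fgfr2, chr16:22439571-22439820 and chr16:22438369-22438618 (minus strand) for the upstream and downstream starts of Etv5, chr3:37639697-37639946 (plus strand) for Spry1 and chr11:19924192-19924441 (plus strand) for Spred2. Capitals mark matches to any of 3 motifs searched on both strands. These are CCGGAA, a narrow form of the ETS factor site, GGAATG, the core bound by Tead factors, and TGANTCA, the AP-1 site. Other forms of ETS site were not searched, so the lack of CCGGAA does not show that a window lacks ETS sites.
Fgfr2: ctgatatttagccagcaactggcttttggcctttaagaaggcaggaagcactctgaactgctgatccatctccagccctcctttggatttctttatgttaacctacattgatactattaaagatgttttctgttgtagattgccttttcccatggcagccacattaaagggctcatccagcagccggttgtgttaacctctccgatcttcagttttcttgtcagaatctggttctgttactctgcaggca
Etv5 upstream start: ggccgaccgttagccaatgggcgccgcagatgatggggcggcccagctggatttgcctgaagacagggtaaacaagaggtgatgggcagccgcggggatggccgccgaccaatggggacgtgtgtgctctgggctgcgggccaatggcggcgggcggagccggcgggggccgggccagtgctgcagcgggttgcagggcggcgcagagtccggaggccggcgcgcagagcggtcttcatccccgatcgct
Etv5 downstream start: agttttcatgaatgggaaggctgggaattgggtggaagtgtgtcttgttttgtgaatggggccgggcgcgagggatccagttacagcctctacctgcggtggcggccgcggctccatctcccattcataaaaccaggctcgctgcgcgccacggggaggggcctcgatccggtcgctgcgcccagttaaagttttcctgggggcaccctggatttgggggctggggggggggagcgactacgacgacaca
Spry1: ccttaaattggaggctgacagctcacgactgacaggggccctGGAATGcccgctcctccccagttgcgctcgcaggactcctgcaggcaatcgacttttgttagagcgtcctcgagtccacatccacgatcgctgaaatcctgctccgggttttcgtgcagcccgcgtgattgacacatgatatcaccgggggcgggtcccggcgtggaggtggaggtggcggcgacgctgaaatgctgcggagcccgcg
Spred2: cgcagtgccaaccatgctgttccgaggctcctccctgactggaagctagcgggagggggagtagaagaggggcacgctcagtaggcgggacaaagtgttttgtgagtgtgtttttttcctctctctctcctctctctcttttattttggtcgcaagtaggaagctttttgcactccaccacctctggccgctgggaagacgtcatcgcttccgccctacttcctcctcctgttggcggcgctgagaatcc
The only match in the 8 windows was GGAATG in Spry1, 208 to 203 bases before the start. Over 32851 promoter windows of the same length, 12.0% held CCGGAA, 12.6% GGAATG and 6.75% TGANTCA. The GC content ran from 44% in the Fgfr2 window to 71.2% in the upstream Etv5 window.

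The receptor transcript fell. Fgfr2 was at 11.15, 11.03, 10.99 and 10.66 in knockout arrays, against 11.98, 12.14, 11.93 and 11.93 in control arrays. Every knockout array lay below every control array, and the gap between the groups was wider than the range within either of them. The group means were 10.96 ± 0.21 in knockout and 11.99 ± 0.10 in control arrays (SD, n = 4 each), a fall of 2.05-fold (difference −1.04, SE 0.10, limma adjusted p = 5.47e-05). Among 19938 differences ordered from the lowest, that of Fgfr2 ranked 237. The probe set gives 1 value for the gene, so the splice forms that differ in ligand binding are not told apart.

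Of the ETS transcription factors, Etv5 fell and Etv4 did not pass the test. Etv5 read 10.22, 9.93, 9.94 and 9.48 in knockout arrays, against 11.32, 11.39, 11.25 and 10.99 in control arrays. The groups were far apart, with knockout replicate 1 closest to the control arrays and knockout replicate 4 farthest from them. The fall was 2.54-fold (difference −1.35, SE 0.14, limma adjusted p = 8.78e-05), at rank 133 from the lowest of all differences and the largest among the 10 genes. The other Etv5 probe set read 10.04, 9.76, 9.64 and 8.89 in knockout arrays, against 11.44, 11.45, 11.30 and 10.91 in control arrays. It too separated the groups, with a larger difference (−1.69, SE 0.22, limma adjusted p = 0.000314 over 21789 probe sets). Etv4 was at 7.05, 7.11, 7.34 and 7.38 in knockout arrays, against 7.05, 6.96, 7.01 and 6.87 in control arrays. Knockout replicates 2, 3 and 4 stood above all control arrays while knockout replicate 1 lay among them (difference 0.24, SE 0.084, 95% interval 0.06 to 0.43, limma adjusted p = 0.0698). Without knockout replicate 1 Etv4 passed (0.30, limma adjusted p = 0.0335). Etv4 was dim, with values near the array medians, and was absent from the fit with dim genes left out.

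**Figure D1:**
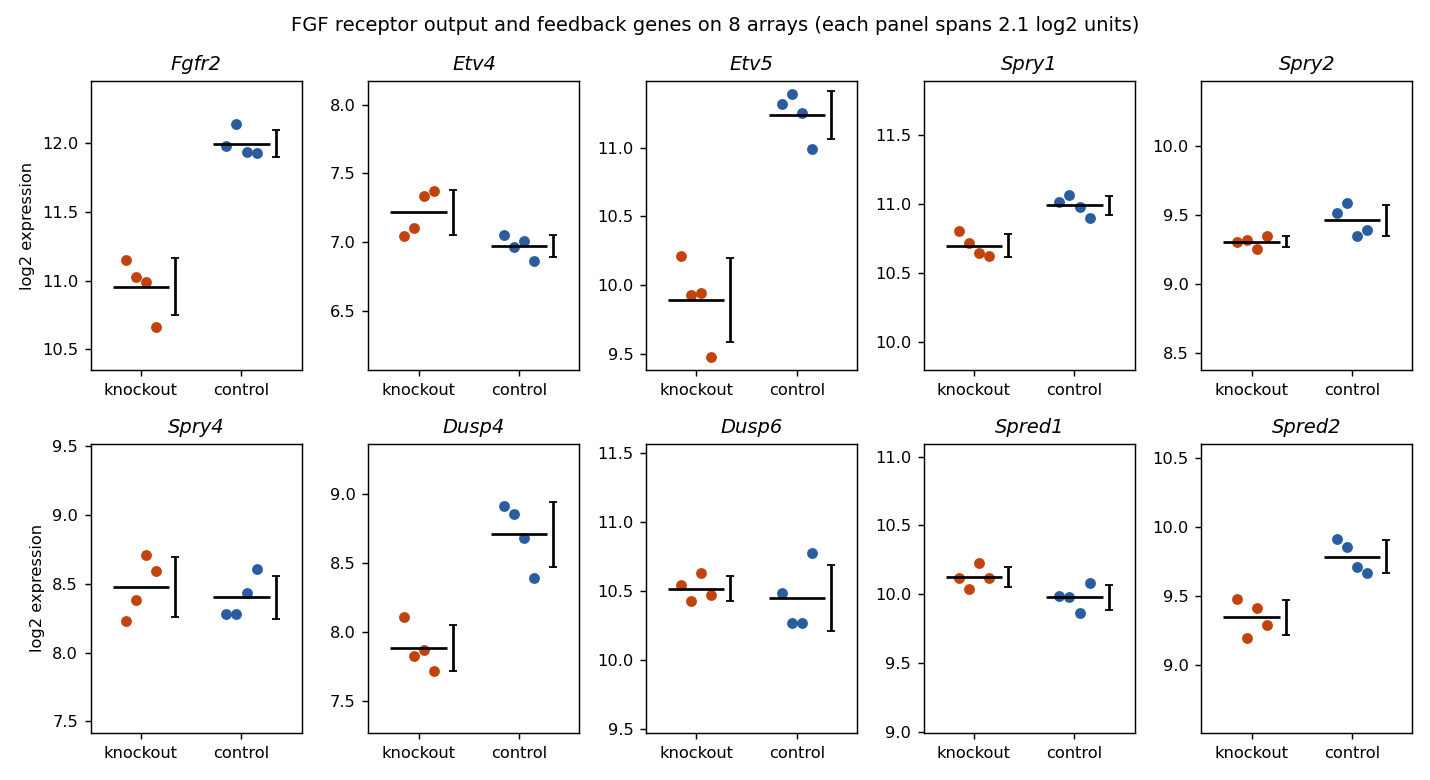
Log2 expression of the 10 genes on each of the 4 knockout (orange, left) and 4 control (blue, right) arrays, with the group mean as a line and the SD as a bar beside it. Fgfr2, Etv5, Dusp4, Spred2 and Spry1 lie lower in all knockout arrays, from 2.54-fold for Etv5 to 1.23-fold for Spry1. So does Spry2, by a narrow margin and without a call, while the groups overlap for Etv4, Spry4, Dusp6 and Spred1.

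Sprouty proteins bind components of the Ras pathway and limit Erk activation after a growth factor signal. Among them Spry1 fell, by less than Fgfr2 or Etv5. Its values were 10.81, 10.72, 10.64 and 10.62 in knockout arrays, against 11.01, 11.07, 10.98 and 10.90 in control arrays. The groups did not overlap, and the fall was 1.23-fold (difference −0.29, SE 0.064, limma adjusted p = 0.00816). The call ended when the mean of the mesenchymal markers was added to the fit (−0.17, limma adjusted p = 0.201). Spry2 read 9.31, 9.32, 9.26 and 9.35 in knockout arrays, against 9.51, 9.59, 9.35 and 9.39 in control arrays. The highest knockout value and the lowest control value of Spry2 were equal to 2 decimals, and the gene did not pass (difference −0.15, SE 0.065, 95% interval −0.30 to −0.01, limma adjusted p = 0.146). Spry4 was at 8.23, 8.38, 8.71 and 8.59 in knockout arrays, against 8.28, 8.28, 8.43 and 8.61 in control arrays. These groups overlapped (difference 0.08, SE 0.11, 95% interval −0.17 to 0.32, limma adjusted p = 0.731), and without knockout replicate 3 the difference was −0.00036.

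The dual-specificity phosphatases remove phosphate from MAP kinases, Dusp4 in the nucleus and Dusp6, with a preference for Erk, in the cytoplasm. Dusp4 fell and Dusp6 did not pass. Dusp4 was at 8.11, 7.82, 7.87 and 7.72 in knockout arrays, against 8.91, 8.85, 8.68 and 8.39 in control arrays. All knockout arrays were lower, and control replicate 4 was the control array nearest to them. The fall was 1.78-fold (difference −0.83, SE 0.12, limma adjusted p = 0.000649), at rank 370 from the lowest of all differences. Dusp6 read 10.54, 10.43, 10.63 and 10.47 in knockout arrays, against 10.49, 10.27, 10.27 and 10.77 in control arrays. Control replicate 4 held the highest value of all arrays and the next control value was 10.49, so the groups overlapped (difference 0.07, SE 0.11, 95% interval −0.17 to 0.31, limma adjusted p = 0.748). A change of Dusp6 as large as the fall of Dusp4 lay outside that interval.

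Spred proteins share a Sprouty-like domain and act at the membrane to hold back Ras and Raf. Spred2 fell and Spred1 did not pass. Spred2 was at 9.47, 9.19, 9.41 and 9.29 in knockout arrays, against 9.92, 9.85, 9.71 and 9.67 in control arrays. The groups were separate (1.36-fold, difference −0.44, SE 0.081, limma adjusted p = 0.00296), and the call ended when the mean of the mesenchymal markers was added to the fit (−0.37, limma adjusted p = 0.0708). The other Spred2 probe set, at 7.60 to 7.94 in knockout arrays and 7.99 to 8.38 in control arrays, gave nearly the same difference (−0.43, SE 0.099, limma adjusted p = 0.0122 over 21789 probe sets). Spred1 read 10.12, 10.04, 10.23 and 10.12 in knockout arrays, against 9.99, 9.98, 9.86 and 10.08 in control arrays. It lay slightly higher in knockout arrays with some overlap and did not pass (difference 0.15, SE 0.066, 95% interval 0.0026 to 0.29, limma adjusted p = 0.161).

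In all, 5 of the 10 genes were called lower, 0 were called higher and 5 were not called. Over all genes 10.2% were called lower and 8.60% higher by the same rule, 18.8% in either direction. At an unadjusted p under 0.05, limma had 6 of the 10 genes lower and 2 higher, beside 15.7% lower and 13.8% higher over all genes. The median difference of the 10 genes was −0.22, beside −0.02 over all genes. In 6 genes, the 5 called ones and Spry2, every knockout array lay below every control array, which was so for 11.9% of all genes. In 0 of the 10 did every knockout array lie above every control array, against 10.2% of all genes.

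**Figure D2:**
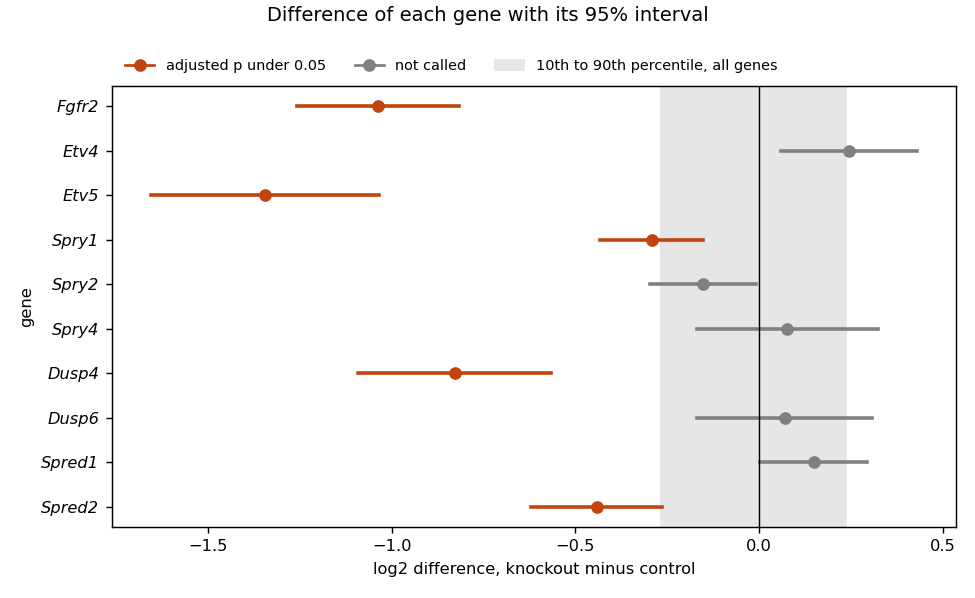
Log2 difference, knockout minus control, of each of the 10 genes (points) with its 95% interval (lines), in orange where the adjusted p was under 0.05, over a grey band for the 10th to 90th percentile of all 19938 genes (−0.27 to 0.24). The differences run from −1.35 for Etv5 to 0.24 for Etv4, and those of Fgfr2, Etv5, Dusp4, Spred2 and Spry1 lie below the band. That of Etv4 (0.244), which was not called, lies just above the upper edge of the band (0.235).

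Within each family 1 gene was called lower and the others were not called. To ask whether relatives differed in how far they shifted, the difference between 2 family members on the same array was compared between the groups with a two-sided exact permutation test, and p-values were adjusted over the 6 pairs. Probe sets differ in brightness, so only the shift of this value between groups is read. Etv5 minus Etv4 was 3.17, 2.82, 2.60 and 2.11 in knockout arrays, against 4.27, 4.42, 4.24 and 4.13 in control arrays. The shift was −1.59 with no overlap between the groups. Dusp6 minus Dusp4 was 2.43, 2.60, 2.76 and 2.75 in knockout arrays, against 1.57, 1.41, 1.59 and 2.38 in control arrays. Here the shift was 0.90, and control replicate 4 lay close to the knockout arrays. Spred2 minus Spred1 was −0.64, −0.85, −0.81 and −0.83 in knockout arrays, against −0.07, −0.13, −0.15 and −0.41 in control arrays, a shift of −0.59. Each of these 3 pairs reached p = 0.0286 in the exact permutation test, the smallest that 4 against 4 arrays can give, but adjusted over the 6 pairs p = 0.0571, so none passed. With 3 of the 6 pairs at that floor, no lower adjusted p was possible. Even fully separate groups could then not pass, so the failure says little about these pairs. The Sprouty pairs shifted less: Spry2 minus Spry1 by 0.14 (exact p = 0.0571, adjusted p = 0.0857), Spry4 minus Spry1 by 0.37 (exact p = 0.143, adjusted p = 0.171) and Spry4 minus Spry2 by 0.23 (exact p = 0.229, adjusted p = 0.229).

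**Figure D3:**
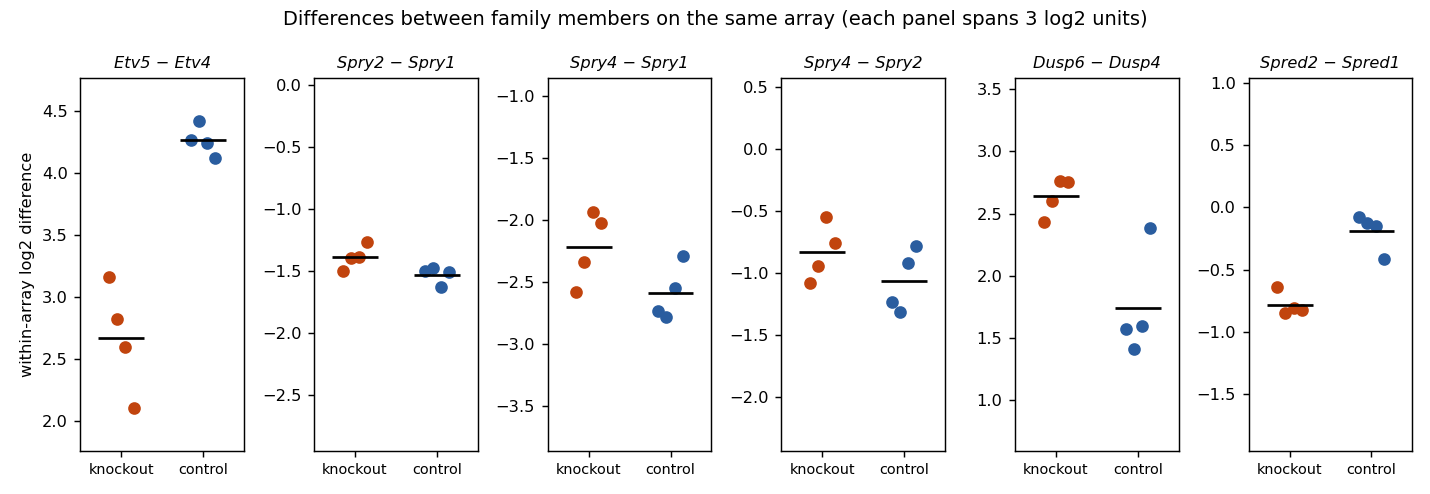
Within-array log2 difference between 2 genes of a family on the 4 knockout (orange, left) and 4 control (blue, right) arrays, with group means as lines. The groups are apart for Etv5 minus Etv4 (means 2.67 in knockout and 4.26 in control arrays), Dusp6 minus Dusp4 (2.64 and 1.74) and Spred2 minus Spred1 (−0.78 and −0.19), and overlap in the 3 Sprouty pairs.

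The 5 genes that fell shared some of their highest and lowest arrays within each group, though not the full order. Knockout replicate 1 was the highest knockout array for 5 of the 5, and knockout replicate 4 the lowest for 4 of them (replicate 2 for Spred2). Control replicate 4 was the lowest control array for all 5, though for Fgfr2 it equalled control replicate 3 to 2 decimals. The highest control array was replicate 2 for 3 of them and replicate 1 for Dusp4 and Spred2. The mean of the 19 type 2 cell markers was 11.42, 11.16, 11.21 and 10.81 in knockout replicates 1 to 4, against 12.22, 12.35, 12.20 and 12.11 in control replicates 1 to 4, which also puts knockout replicate 1 highest and replicate 4 lowest of the knockout arrays, and control replicate 4 lowest of the control arrays. The mean of 18 mesenchymal markers was 8.76, 8.83, 9.22 and 9.25 in knockout replicates 1 to 4, against 8.50, 8.56, 8.63 and 8.91 in control replicates 1 to 4. It was highest in replicate 4 of both groups. With the mesenchymal mean as a covariate Fgfr2 (−0.85, limma adjusted p = 0.00156), Etv5 (−1.02, limma adjusted p = 0.00134) and Dusp4 (−0.56, limma adjusted p = 0.0146) were still called. With the type 2 marker mean as a covariate 0 of the 10 genes were called in limma, and 0 at an unadjusted p under 0.05, where 11.5% of all genes were lower and 9.76% higher. The difference was then −0.16 (SE 0.18) for Fgfr2, −0.0097 (SE 0.19) for Etv5 and −0.0035 (SE 0.30) for Dusp4. That mean itself separates the groups, and over all genes only 7 were called higher and 0 lower in that fit, so the loss of type 2 marker expression and the fall of these genes cannot be told apart in these arrays.

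**Figure D4:**
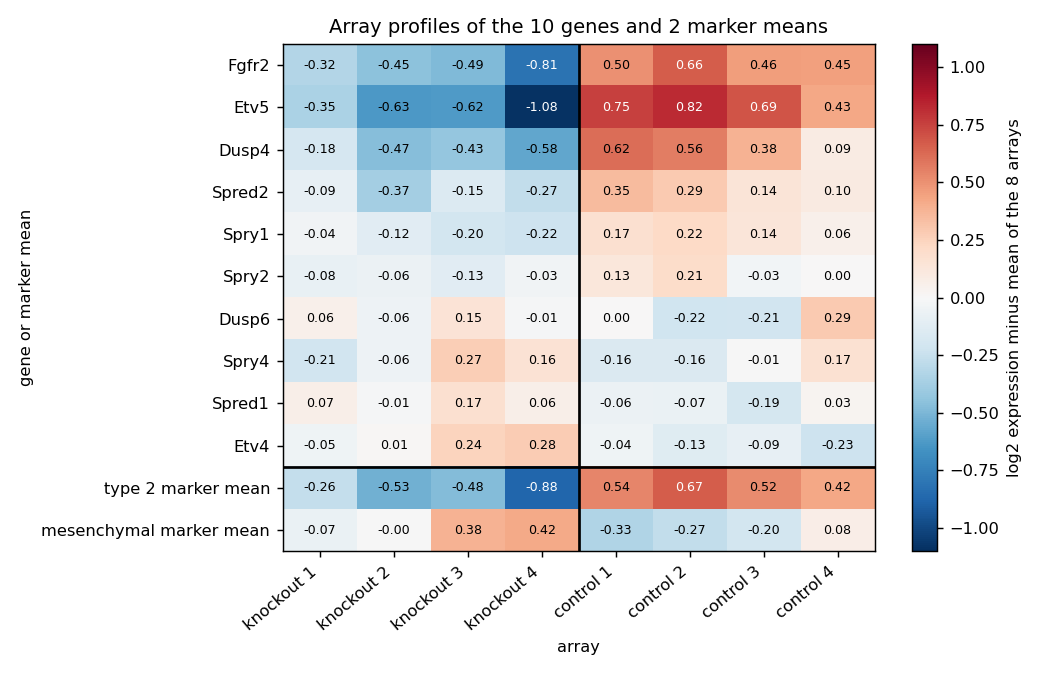
Log2 expression minus the mean of the 8 arrays for the 10 genes (upper rows) and for the means of the type 2 and mesenchymal markers (lower rows), with the 4 knockout arrays left of the 4 control arrays, blue for below and red for above the mean. Fgfr2, Etv5 and Dusp4 share with the type 2 marker mean their lowest value in knockout replicate 4 (−0.81, −1.08, −0.58 and −0.88).

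Genes with an array profile like that of Etv5 were sought over all 19938 genes, by the root mean square distance between profiles after subtracting each gene's mean over the 8 arrays. The closest were Lgi3 (distance 0.037 log2 units), a secreted leucine-rich protein, Tmem116 (0.070), Ank3 (0.070), which encodes ankyrin G, Lamp3 (0.074), a lysosomal membrane protein on the type 2 marker list, and Stx19 (0.078), a syntaxin. Since the group difference is part of the profile, they were bound to fall by about as much, and their differences lay between −1.26 and −1.41. Among the 10 genes, Fgfr2 was nearest to Etv5 (0.18, rank 75), followed by Dusp4 (0.28, rank 227) and Spred2 (0.48, rank 868).

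Upstream of the receptor, 3 of 22 measured FGF ligand genes were called higher, 1 lower and 18 were not called, and the median difference was −0.03. The share called was 18.2%, close to the 18.8% over all genes. Fgf18, a ligand known for roles in lung and skeletal development, rose to 10.18 to 10.37 in knockout arrays, against 9.60 to 9.77 in control arrays (1.52-fold, difference 0.60, SE 0.066). Fgf11 (−0.68, SE 0.087) fell and Fgf13 (0.39, SE 0.089) rose, both members of the group of FGF homologous factors that stay inside the cell. Both were dim, with means below the array medians: 6.50 in knockout and 7.18 in control arrays for Fgf11, 6.47 and 6.07 for Fgf13. The call of Fgf13 ended with the mesenchymal marker mean in the fit (0.28, limma adjusted p = 0.199). Fgf10, the mesenchymal ligand of Fgfr2 that drives lung branching, read 6.66, 6.75, 7.09 and 7.11 in knockout arrays, against 6.81, 6.77, 6.82 and 7.02 in control arrays. Fgf10 was thus highest in knockout replicates 3 and 4 and control replicate 4, the arrays with the highest mesenchymal marker means, and did not pass (0.05, SE 0.11, 95% interval −0.19 to 0.29). Fgf7 (0.03, SE 0.13), Fgf9 (−0.04, SE 0.066) and Fgf1 (−0.23, SE 0.091, limma adjusted p = 0.121) did not pass either. Fgf7, Fgf9 and Fgf10 read below the array medians on every array, so a lack of change there says little.

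Among 9 other receptor and co-receptor genes 3 were called higher, 0 lower and 6 were not called, with a median difference of 0.20. The share called was 33.3%, beside 18.8% over all genes. Fgfr3, a receptor of the same family, stood at 9.91 to 10.09 in knockout arrays, against 9.52 to 9.72 in control arrays. It rose (1.31-fold, difference 0.39, SE 0.064, limma adjusted p = 0.00169) while Fgfr2 fell. Fgfr1 (0.23, SE 0.10, limma adjusted p = 0.162) and Fgfr4 (0.20, SE 0.12, limma adjusted p = 0.323) did not pass, and both turned negative when the mean of the mesenchymal markers was added to the fit. Flrt2 and Flrt3, membrane proteins that associate with FGF receptors, rose by 0.98 (SE 0.11) and 0.36 (SE 0.095). The call of Flrt3 ended without any 1 of knockout replicates 1, 2 and 3 and control replicates 2 and 3. Heparan sulphate chains help FGF ligands to bind their receptors. Of 19 genes for their core proteins and enzymes 3 were called higher, 2 lower and 14 were not called (median difference 0.06, share called 26.3%). The syndecan Sdc4 fell (−0.56, SE 0.063), while the syndecan Sdc2 (0.51, SE 0.088) and the glypican Gpc1 (0.56, SE 0.086) rose. The calls of Sdc2 (0.43, limma adjusted p = 0.0536) and Flrt3 (0.44, limma adjusted p = 0.0672) ended with the mesenchymal marker mean in the fit.

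In the relay between receptor and Erk, 1 of 18 measured adaptor and Ras-Erk cascade genes was called higher, 2 lower and 15 were not called, with a median difference of −0.01. The share called was 16.7%, close to the 18.8% over all genes. Sos2, an exchange factor that loads Ras with GTP, fell to 9.53 to 9.73 in knockout arrays, against 10.04 to 10.28 in control arrays (difference −0.52, SE 0.070, limma adjusted p = 0.000418). Ptpn11, the phosphatase Shp2 that passes the signal on to Ras, rose by 0.25 (SE 0.063). Its call ended without knockout replicate 3 (0.24, limma adjusted p = 0.0602) or control replicate 3 (0.20, limma adjusted p = 0.0534). Plcg1, a phospholipase bound by activated receptors, fell (−0.27, SE 0.069), though leaving out knockout replicate 1 or 2, or control replicate 1 or 2, put its adjusted p above 0.05. Of 21 genes listed as other feedback regulators, not all of them known feedback inhibitors, 4 were called higher, 1 lower and 16 were not called (median difference 0.04, share called 23.8%). Dusp7, another phosphatase of Erk, rose to 11.51 to 11.71 in knockout arrays, against 10.97 to 11.25 in control arrays (difference 0.52, SE 0.075), and the scaffold pseudokinase Peak1 (0.38, SE 0.081) and the membrane protein Lrig3 (0.32, SE 0.069) rose too. With the mesenchymal marker mean in the fit the calls of Peak1 (0.29, limma adjusted p = 0.148), Ptpn11 (0.18, limma adjusted p = 0.264) and Plcg1 (−0.29, limma adjusted p = 0.110) ended. Also called among the 21 regulators were Dusp8, higher (0.31, SE 0.085, limma adjusted p = 0.0250), and Errfi1, lower (−0.34, SE 0.082, limma adjusted p = 0.0144). Both were named after their values were seen and were not followed through the alternatives. Of relatives fixed by name, Spry3 (−0.19, SE 0.086), Spred3 (−0.19, SE 0.081) and Dusp5 (−0.17, SE 0.13) did not pass. Nor did Il17rd, an inhibitor of FGF receptors also called Sef (0.18, SE 0.099). Without control replicate 2, Spred3 passed (−0.26, limma adjusted p = 0.0297).

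Other genes used as readouts of Erk signalling changed in both directions. Of 18 measured, 6 were called higher, 4 lower and 8 were not called, with a median difference of 0.02. The share called was 55.6%, beside 18.8% over all genes. The number called higher was 2 without knockout replicate 3 or control replicate 3, and the number called lower was 2 without knockout replicate 3 or control replicate 1. Egr2, a zinc finger transcription factor, was at 9.16, 9.03, 8.98 and 8.65 in knockout arrays, against 10.07, 9.92, 9.93 and 10.20 in control arrays (2.11-fold lower, difference −1.08, SE 0.11). Ier2 (−0.36, SE 0.075) and Egr1 (−0.24, SE 0.061), both rapidly induced by growth factors, fell as well, the call of Egr1 ending without knockout replicate 3 or control replicate 1. Ier3 (0.65, SE 0.089), a stress-inducible regulator of cell survival, and the G1 cyclin gene Ccnd1 (0.29, SE 0.066) rose. The mesenchymal marker mean in the fit ended the calls of Ier2 (−0.32, limma adjusted p = 0.106), Egr1 (−0.19, limma adjusted p = 0.229) and Ccnd1 (0.27, limma adjusted p = 0.124). Without knockout replicates 1 and 4 together, Ccnd1 (0.27, limma adjusted p = 0.0667) and Egr1 (−0.26, limma adjusted p = 0.0588) did not pass. Etv1, the third gene of the Etv4 and Etv5 subfamily, varied widely, at 7.90 to 8.72 in knockout arrays and 7.15 to 8.13 in control arrays, and did not pass (0.53, SE 0.21, limma adjusted p = 0.120).

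Of 9 distal lung genes known in mouse to depend on FGF signalling, 3 were called higher, 3 lower and 3 were not called, with a median difference of 0.17. The share called was 66.7%, beside 18.8% over all genes. Sox9, a transcription factor of the distal bud, was at 8.48 to 8.90 in knockout arrays, against 9.67 to 10.13 in control arrays. This was a fall close in size to that of Etv5 (2.45-fold, difference −1.30, SE 0.12, limma adjusted p = 3.93e-05). Cpm, a carboxypeptidase, fell (−0.82, SE 0.10), while Mycn, a transcription factor of distal progenitors, rose (0.67, SE 0.064). Bmp4, a morphogen of the distal tip, (0.17, SE 0.069, limma adjusted p = 0.119) and Shh (−0.25, SE 0.085, limma adjusted p = 0.0653) did not pass. Without knockout replicate 1, Shh passed (−0.31, limma adjusted p = 0.0330). Shh was higher in all control arrays than in any knockout array, as were 11.9% of all genes. Cre is driven from this gene's control in the knockout animals, and whether the control animals carried it is not stated. Any bearing of this on Shh was not tested.

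**Figure D5:**
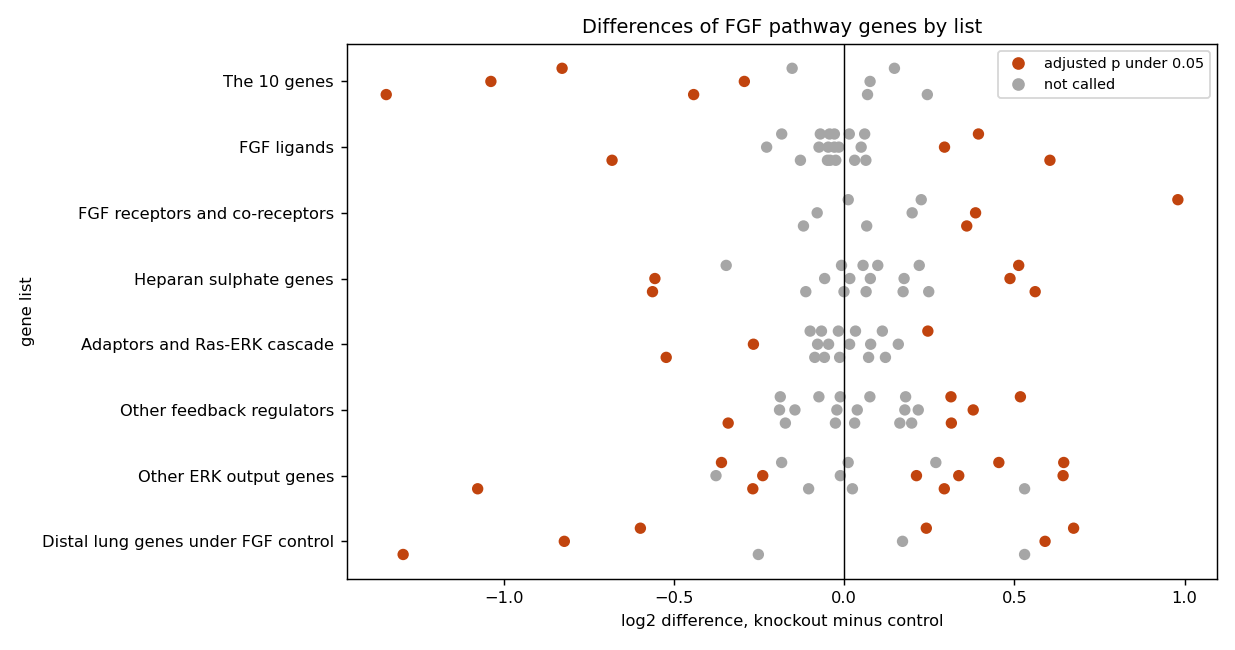
Log2 difference, knockout minus control, of each gene (point) in the 10 genes described here (top row) and in 7 lists of other pathway genes, in orange where the adjusted p was under 0.05. Called genes lie on both sides of 0 in every list except the receptors and co-receptors, where 3 of 9 rose, and the 10 genes themselves, where 5 fell.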

How the data were processed

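RNA of 4 knockout and 4 control samples was measured on single-colour arrays. The authors deposited log2 values for 35556 probe sets. The log2 scale was read from the range of the values, and the normalization method is not given in the sources used here. At every rank the arrays differed by at most 0.17 from their mean, so no further scaling was applied. The platform annotation names 1 gene for 21789 probe sets and several for 1621, and names none here for 12146. The 21789 cover 19938 genes, of which 999 have more than 1 probe set and were read from the brightest on average. The 2 groups were compared in R 4.3.3 by limma 3.58.1 (lmFit, eBayes), two-sided and without covariates. The fit was tested on simulated data. Intervals are limma's 95% intervals. Exact permutation tests used scipy 1.17.1 over 70 assignments.

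The labels call the arrays biological replicates but do not say that they come from separate animals, so p-values measure the spread between arrays, whose number limits the precision. No 2 arrays of a group held the same values. The 10 genes, the 16 gene lists, the tests and the alternatives were chosen with earlier results of these data known. Named genes are the 10 genes, the 3 with the smallest p of each list (printed for the pathway lists), others fixed by name, and the 5 nearest in profile to Etv5. A few others, such as Tfrc, Dusp8 and Errfi1, were named after their values were seen. Of genes fixed by name, Frs2 and Stk3 were not analysed here, nor were protein sequences. Alternatives were a replicate block, median centring, quantile normalization, dim genes left out, the mean of all probe sets, trend and robust moderation, array weights, each array left out, knockout replicates 1 and 4 left out together, and the mesenchymal or type 2 marker mean as a covariate. The second probe set of Etv5 and Spred2 was added after the data were seen.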

Additional observations from a re-analysis of the deposited data

Results flagged for a closer look

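In 5 of 120 groups of 4 arrays examined, 1 array stood apart, with a gap to its nearest neighbour that passed Dixon's 95% critical value as a share of the group's range. Chance gives about 1 in 20, or 6. None of the 10 genes was among them. Fgf7 was at 6.67 in control replicate 4, against 6.48 to 6.50 in the other control arrays (gap 0.875 of the range). Sdc2 was at 8.71 in control replicate 4, against 8.33 to 8.39 in the others (0.840). Stk4 was at 9.84 in control replicate 2, against 9.59 to 9.62 in the others (0.869). Sdc4 was at 10.78 in knockout replicate 4, against 10.98 to 10.99 in the other knockout arrays (0.916). Stx19 was at 7.28 in knockout replicate 4, against 7.72 to 7.80 in the others (0.842).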

How the results depend on the processing

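The same 5 genes (Fgfr2, Etv5, Dusp4, Spred2 and Spry1) were called lower in 16 of 18 alternatives. The count was 3 with the mean of the mesenchymal markers in the fit and 0 with that of the type 2 markers, where the counts over all genes were 773 higher and 965 lower, and 7 higher and 0 lower, beside 1715 and 2031 without a covariate. Each covariate uses a degree of freedom, both means differ between the groups, and the cause was not tested. Without 1 array, 5 of the 10 genes were called lower in each case and 0 to 1 higher (Etv4, without knockout replicate 1). Over all genes 1240 to 1820 were then called higher and 1526 to 2158 lower. With the replicate number as a block the same 5 genes were called, with limma adjusted p at most 0.0144 (Spry1), beside 1595 higher and 1899 lower over all genes. The deviations of same-numbered arrays correlated at −0.08 to 0.10 over all genes. With so few arrays this cannot settle whether equal numbers mark a shared litter or batch, which the labels do not say. The block added the calls of Etv1 and Shh and ended that of Plcg1. The 6 family pairs were recomputed only with arrays left out and with the mean of all probe sets. In the settings with arrays left out no pair's shift moved by more than the spread between arrays. With the mean of all probe sets none changed its sign or its call, though the floor of the exact test leaves little room for a call.

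Signs turned with the type 2 marker mean for Etv4 (−0.16), Spry1 (0.060), Spry4 (−0.57), Dusp6 (−0.064), Fgf1 (0.38), Fgf7 (−0.53), Fgf10 (−0.69), Fgf13 (−0.27), Fgfr1 (−0.50), Fgfr4 (−0.62), Il17rd (−0.56), Etv1 (−0.82), Shh (0.24), Stk4 (0.13), Lgi3 (0.084) and Lamp3 (0.094). With the mesenchymal mean they turned for Spry4 (−0.22), Dusp6 (−0.082), Fgf7 (−0.31), Fgf10 (−0.24), Fgfr1 (−0.030), Fgfr4 (−0.14) and Il17rd (−0.066). With array weights they turned for Fgf7 (−0.066) and Fgf10 (−0.045). Without 1 array they turned for Spry4 (range −0.00036 to 0.16), Fgf7 (−0.10 to 0.13), Fgf10 (−0.019 to 0.13) and Epcam (−0.042 to 0.091), none of which had passed.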
